A study of Homo sapiens with 4 samples.

Results

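The Golgi glycosyltransferases are the enzymes that build, branch and cap the sugar chains of glycoproteins and glycolipids as these pass through the secretory pathway. Their messenger RNAs were measured in Hep3B cells, a human hepatocellular carcinoma line, after knockdown of UNC50, which encodes a membrane protein of the Golgi apparatus. The genes were chosen by symbol alone, as those whose names on the array begin with MGAT, MAN1A, MAN2A, B3GALT, B4GALT, B3GNT, GALNT, GCNT, ST3GAL, ST6GAL, ST8SIA or FUT, the stem being followed by a number or letters of the family. This gave 91 genes, with 110 probes and 223 spots, of 34809 gene names on the array, and each gene was read from the probe with the highest mean log2 signal over the arrays. All are called glycosyltransferase genes below, as the name of the list. The MAN1A and MAN2A genes encode mannosidases, which remove mannose, and RefSeq lists GCNT6 as a pseudogene. Where in the cell each enzyme acts was not checked.

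The cells fell into 4 kinds, with 1 single-colour Agilent array for each. Control cells carried shR-MOCK, a plasmid with a mock small hairpin RNA, and the other cells carried shR-467, shR-554 or shR-749, hairpins directed against UNC50 mRNA at base pairs 467, 554 and 749. All cells were of the Hep3B line and were selected after transfection with puromycin at 1 μg/ml. The 3 hairpins were taken as replicates of the knockdown, so the spread between them holds effects of a single hairpin as well as of the culture, and the mock group, having 1 array, has no spread of its own. A value below is the scanner's processed signal in its own units, and a log2 difference is taken after each array was set to its own 75th percentile. This percentile was 1120 on the mock array, 978 and 1390 on those of shR-467 and shR-554, and 1130 on that of shR-749, so a raw signal from the shR-554 array reads high and one from shR-467 low. Where 4 signals are listed without names, they run from the mock array through shR-467 and shR-554 to shR-749. The array scanner software marks a spot as well above background or not, and this mark was used to decide which genes had been measured.

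Most N-glycans are made by trimming a mannose-rich precursor and rebuilding it. Mannosidases remove mannose, MGAT enzymes attach N-acetylglucosamine to start each branch, and galactose, sialic acid and fucose are then added. The O-glycans of mucin type are started by GALNT enzymes, which attach N-acetylgalactosamine to serine or threonine, and are branched by GCNT enzymes. Hepatocytes secrete many plasma glycoproteins, and changes in branching and fucosylation of these proteins are known from liver cancer.

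The results turned on a small number of probes, and the first 30 bases of these, 5′ to 3′ and on hg19 as the array annotation places them, are given here so that each value can be traced to the stretch it reads. UNC50 and MGAT4A are shown because the genes are adjacent, at chr2:99227237-99227296 and, on the minus strand, chr2:99242197-99242256. The 3 probes of ST3GAL3, at chr1:44396560-44396619, chr1:44395824-44395883 and chr1:44395815-44395874, are shown because their overlap decides how many independent readings there are. The capitals mark bases that probes 2 and 3 share.
UNC50: gtgtccactataggatttggctttgtgctg
MGAT4A: gtctcaatcccatttcagcctttcgacttt
ST3GAL3 probe 1: ctatagcagaaagaactttaaagctcagga
ST3GAL3 probe 2: GCGAGAGAAAGAGTTTCTGCGGAAGCTGGT
ST3GAL3 probe 3: caatatccaGCGAGAGAAAGAGTTTCTGCG
Shown likewise are the probes of other genes described in full, with GCNT3 at chr15:59911364-59911423, B3GNT5 at chr3:182990933-182990992 and MAN1A2 at chr1:118067852-118067911 and chr1:118039385-118039444.
GCNT3: tttgaagaaccctaaatcccaacaactgat
B3GNT5: aaatgtcaacaaagggaaaataaactatca
MAN1A2 probe 1: aatggaagggtcttcttcaccactccttac
MAN1A2 probe 2: gctatagaaaaacatcttattaagaagtct
Whether these stretches lie in coding or untranslated parts of the exons was not read here, since no annotation of hg19 was used. No probe of one glycosyltransferase shared more than 13 bases in a row with a probe of another, over 5974 pairs.

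The target gene was checked first. The UNC50 probe gave a signal of 5010 in mock cells and 1050 under shR-467, 853 under shR-554 and 947 under shR-749. Every hairpin array lay far under the mock array, at 24.0%, 13.7% and 18.7% of it after scaling. The mean log2 difference was -2.45 ± 0.40 (SD, n = 3 hairpins), with a limma p of 1.34e-04 that became 0.615 after Benjamini-Hochberg adjustment over 25134 genes, the smallest adjusted value of any gene. With 1 mock array against 3, an exact permutation test cannot give a p under 0.25. All 11 hepatocyte and hepatoma markers, ALB, AFP and APOA1 among them, were well above background on all 4 arrays, with a summed signal between 480766 and 714204, with the lowest sum on the mock array. Of the 6 fibroblast markers 1, LUM, was well above background on all 4 arrays, with 125, 199, 276 and 158, and COL1A1 and COL3A1 were on none, the summed signal of the list being 208 to 340. Of the 4 endothelial markers PECAM1, CDH5 and VWF were on all 4 arrays and KDR on none, at a summed signal of 266 to 355. The 5 leukocyte markers were all well above background throughout, at a summed signal of 5238 to 6186. LUM was higher than mock with every hairpin, by 0.67 ± 0.30 (SD, n = 3) on the log2 scale, and what part other cells had in any difference was not tested.

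Of the 91 glycosyltransferase genes, 57 (62.6%) were well above background on all 4 arrays, against 61.7% of all genes. A further 10 were so on 1 to 3 arrays and 24 on none. The families differed in how many of their members were measured. All 4 mannosidases and all 6 ST3GAL genes, whose enzymes add sialic acid in α2,3 linkage, were measured on every array, as were 9 of 10 B3GNT genes and 6 of 7 B4GALT genes. Of the 11 fucosyltransferase genes 8 were measured throughout. Among the MGAT genes, MGAT1, MGAT2, MGAT4A and MGAT4B were measured on all 4 arrays, while MGAT3, which makes the bisecting branch, MGAT5, which makes the β1,6 branch, MGAT4C and MGAT5B were on none. Only 1 of 6 ST8SIA genes, whose enzymes make sialic acid chains, and 8 of 19 GALNT genes were well above background throughout. A gene not well above background has no measured level here, which does not show that it is silent.

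**Figure D1:**
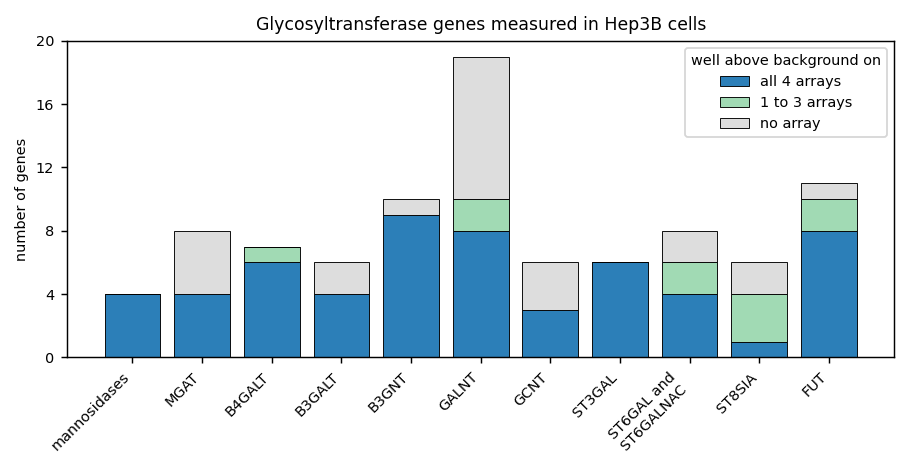
Number of glycosyltransferase genes per family (y axis, genes) whose probe was well above background on all 4 arrays, on 1 to 3 arrays or on no array. The mannosidases and the ST3GAL family are complete at 4 of 4 and 6 of 6 genes, and the GALNT family has the most unmeasured genes, 9 of 19.

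MGAT4A encodes a transferase that starts the β1,4 branch of N-glycans, and in the RefSeq table of GRCh38.p14 it is the gene next to UNC50, 590 bases away. Its signal was 1859 in mock cells and 1749 under shR-467, 2159 under shR-554 and 983 under shR-749. After scaling, shR-467 stood 0.11 above the mock array on the log2 scale, shR-554 stood at -0.10 and shR-749 at -0.93, so the hairpins fell on both sides of the control. Only the shR-749 array was clearly lower, at 52.4% of mock. The mean log2 difference was -0.31 ± 0.55 (SD, n = 3), with a 95% confidence interval from limma of -1.24 to 0.63 and a p of 0.465. Without shR-749 the mean was 0.0062, of the opposite sign, so the difference rested on that array.

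The other measured genes around UNC50 lay near the mock level, apart from a probe of C2orf64. The MGAT4A probe lies 14.96 kb from that of UNC50. On the other side, the 2 probes of C2orf64, now called COA5, gave mean log2 differences of 0.082 ± 0.11 and 0.63 ± 0.17 (SD, n = 3). The second, the dimmer probe, was above mock with every hairpin and past 1.5-fold on average, at 1.55-fold. Within 500 kb, TSGA10 (0.12 ± 0.30, and 0.24 ± 0.50 from its second probe), C2orf55, now CRACDL (-0.21 ± 0.19), an unnamed transcript, ENST00000409490 (-0.18 ± 0.098), and a probe annotated to SMC3 (-0.078 ± 0.11) stood between -0.21 and 0.24 on the log2 scale. RefSeq places SMC3 itself on chromosome 10. CNGA3 and VWA3B were well above background on the mock array only, at signals of 25.7 and 25 against a limit of 21.2 there, and no fold is given for them.

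**Figure D2:**
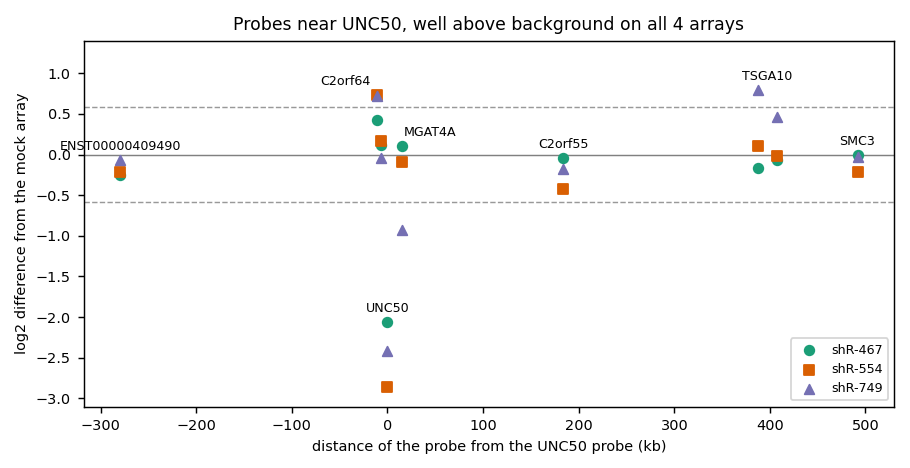
Log2 difference of each hairpin array from the mock array (y axis) for probes well above background on all 4 arrays, against the distance of the probe from that of UNC50 in kb (x axis). Points are the 3 hairpins and dashed lines mark 1.5-fold. UNC50 lies between -2.06 and -2.87, and of the MGAT4A points only that of shR-749, at -0.93, is past a dashed line.

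Over the 57 genes measured on all 4 arrays, the median log2 difference of knockdown from mock was 0.014, beside 0.0020 over the 21488 genes measured likewise. The differences ran from -0.74 for GCNT3 to 0.69 for ST3GAL3. A mean difference of at least 1.5-fold was seen for 2 genes upward, ST3GAL3 and ST8SIA1, and for 2 downward, GCNT3 and FUT2. These are 3.51% each way, beside a background of 2.34% of all genes higher and 2.92% lower. In either direction the count was 4, or 7.02% against 5.26%, which is near the background. Only ST3GAL3 was past 1.5-fold upward with every hairpin, against a background of 0.568%, and no member was past it downward with every hairpin, where the background is 0.475%.

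No glycosyltransferase gene passed limma at an adjusted p under 0.05, where the background over 25134 genes tested is 0%. All 63 members tested had an adjusted p of 1.00 after rounding. At an unadjusted p under 0.05 limma gave 3 members, ST3GAL3, GCNT3 and B3GNT5, which is 4.76% beside 1.52% of all genes. The families are taken in turn below, and every difference named is to be read with this result.

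**Figure D3:**
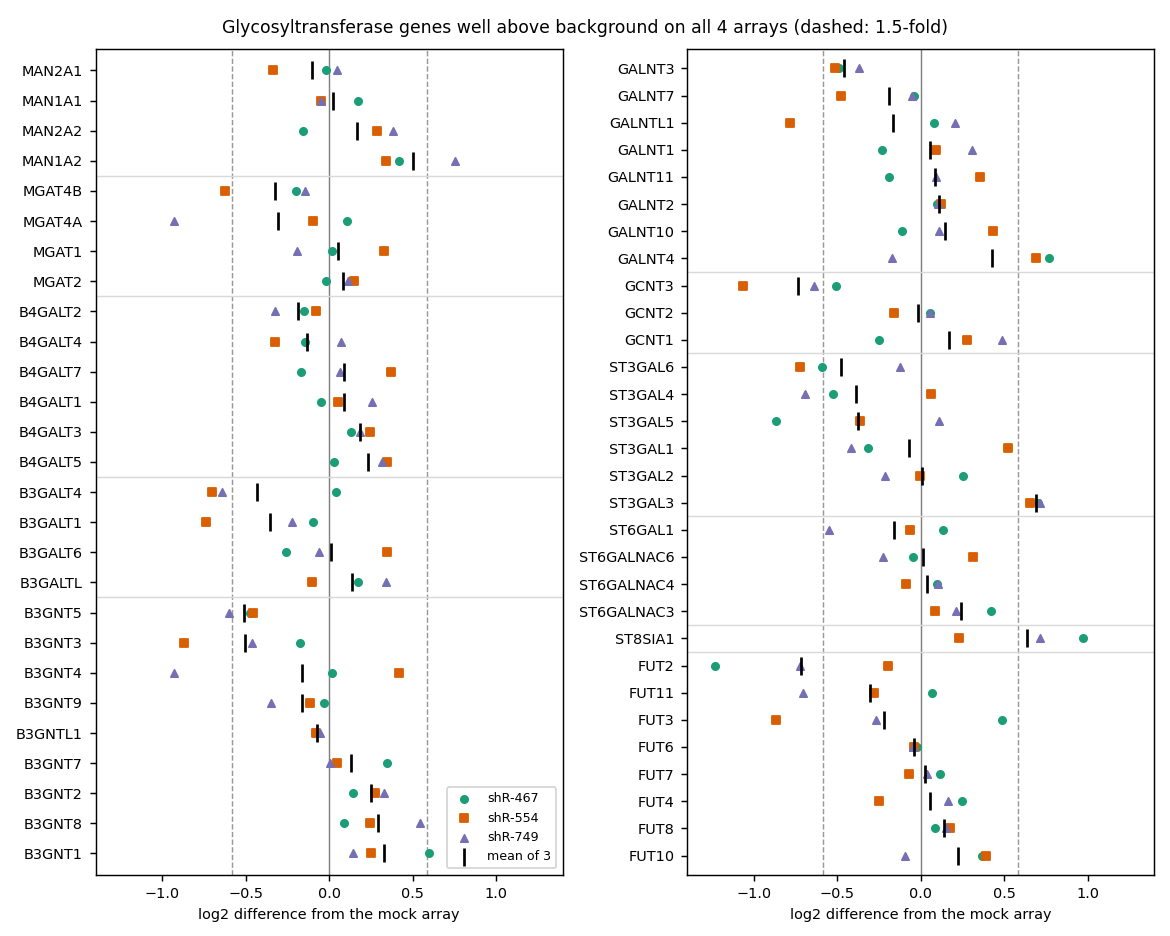
Log2 difference of each hairpin array from the mock array (x axis) for the 57 genes measured on all 4 arrays, grouped by family. Coloured points are the 3 hairpins, black ticks their means, and dashed lines mark 1.5-fold. The ST3GAL3 points lie together between 0.66 and 0.71, whereas those of FUT3 run from -0.87 to 0.49.

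Among the trimming mannosidases, MAN1A2, which removes α1,2-linked mannose in the Golgi, gave 865 in mock cells and 1010 under shR-467, 1360 under shR-554 and 1470 under shR-749. The hairpins were all above control, at log2 differences of 0.42, 0.34 and 0.75, with a mean of 0.50 ± 0.22 (SD, n = 3) and a limma p of 0.085. Its second probe, which reads another stretch of the gene, gave 210, 237, 325 and 380 and a mean of 0.51 ± 0.29. Each probe has a single spot per array. Both probes were thus about 1.42 times the mock level, and without shR-554 the first reached 0.59, just past 1.5-fold. The related MAN1A1 lay at 0.024 ± 0.13, MAN2A2 at 0.17 ± 0.29 and MAN2A1 at -0.10 ± 0.20, each differing from mock by less than the SD between hairpins.

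The MGAT family held no gene past 1.5-fold on average. MGAT1, whose product opens the way to all complex N-glycans, gave 3790, 3350, 5902 and 3344. Its mean log2 difference was 0.050 ± 0.26 (SD, n = 3), and its 3 probes gave means between 0.024 and 0.15. MGAT2, which starts the second arm, was the highest of the family at 0.081 ± 0.088, with a 95% interval of -0.38 to 0.54. MGAT4B, which carries out the same step as MGAT4A, was the lowest at -0.32 ± 0.26 and was past 1.5-fold with shR-554 only.

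The galactosyltransferases of the B4GALT family, which extend the branches, were close to the mock array. Their mean log2 differences ran from -0.18 ± 0.13 for B4GALT2 to 0.23 ± 0.18 for B4GALT5 (SD, n = 3), and none of the 6 genes was past 1.5-fold with any hairpin. B4GALT3, read from 10 spots, gave 6428, 6139, 9463 and 7363. All hairpins were above mock, yet by no more than 0.25, and the mean was 0.19 ± 0.059. In the B3GALT family, B3GALT4, a ganglioside synthase, gave 540, 485, 412 and 349 and a mean of -0.43 ± 0.41. It was past 1.5-fold downward with shR-554 and shR-749, and at 0.041 with shR-467, without which the mean was -0.67. B3GALTL, now B3GLCT, which adds glucose to O-linked fucose, was the highest of that family at 0.14 ± 0.22.

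Most enzymes of the B3GNT group add N-acetylglucosamine to galactose and lengthen the chains. B3GNT5, which makes the precursor of lacto-series glycolipids, gave 1860 in mock cells and 1170 under shR-467, 1680 under shR-554 and 1240 under shR-749. Each hairpin array was below mock after scaling, at log2 differences of -0.47, -0.46 and -0.60, and the hairpins lay closer to each other than to the mock array. The gene is read from a single spot on each array, so the mock value rests on 1 spot. The mean was -0.51 ± 0.077 (SD, n = 3), which is 70.2% of mock, with a 95% interval from limma of -1.01 to -0.011 and an unadjusted p of 0.046. B3GNT3 was lower with each hairpin too, at -0.18, -0.87 and -0.46. B3GNT1, now called B4GAT1, which primes the matriglycan of dystroglycan, was the highest at 0.33 ± 0.24. Of the 9 genes measured in this family, 4 were above mock with every hairpin and 4 below. Among the 4 above was B3GNT7, by a probe annotated to another chromosome than the gene, and its second probe was at -0.10 with shR-554. Among the 4 below was B3GNTL1, now QTGAL. It was grouped here by its array name, which alone does not make its product a Golgi enzyme.

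Across the families, 12 of 57 genes were above the mock array with every hairpin, or 21.1% beside 20.2% of all genes, and 13 were below it, or 22.8% beside 18.4%. The 12 include B3GNT7 by its probe annotated to another chromosome. The hairpins share the 1 mock array, so that a high or low mock value alone would place all of them on the same side.

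For the GALNT enzymes, which start mucin-type O-glycans, the 8 measured genes ran from -0.46 ± 0.078 for GALNT3 to 0.43 ± 0.52 for GALNT4 (SD, n = 3). GALNT3 gave 443, 275, 385 and 346. It was lower with every hairpin by a similar amount, at 72.8% of mock, and did not reach 1.5-fold with any. GALNT4 was dim, with 46.3, 68.8, 92.7 and 41.4, and its hairpins divided, 2 above mock past 1.5-fold and shR-749 at -0.17, without which the mean was 0.73. GALNT2 was steady, at 0.10, 0.12 and 0.10.

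GCNT3 encodes an enzyme that makes core 2 and core 4 branches on O-glycans and branches on I antigen, and it had the lowest mean of all 57 genes. Its signal was 636 in mock cells and 391 under shR-467, 377 under shR-554 and 412 under shR-749. The 3 hairpin arrays lay close together in raw signal and all below the mock array, at 70.4%, 47.8% and 64.2% of it after scaling. The mean log2 difference was -0.74 ± 0.29 (SD, n = 3), a signal 1.67-fold higher in mock, with a 95% interval from limma of -1.45 to -0.026 and an unadjusted p of 0.044. It is read from a single spot, and without shR-554 the mean was -0.57, under 1.5-fold. Its relatives GCNT1, the widely expressed core 2 enzyme (0.17 ± 0.38), and GCNT2, the I-branching enzyme (-0.018 ± 0.12), differed from mock by less than the SD between hairpins.

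ST3GAL3, which puts sialic acid in α2,3 linkage on the galactose that ends many N-glycan branches and glycolipids, had the highest mean of the 57 genes. Its signal was 363 in mock cells and 516 under shR-467, 711 under shR-554 and 601 under shR-749. All hairpins stood apart from the mock array and near each other, at 0.70, 0.66 and 0.71 on the log2 scale. The mean was 0.69 ± 0.030 (SD, n = 3), which is 1.61-fold, with a 95% interval from limma of 0.14 to 1.24. Its unadjusted p of 0.022 had rank 198 among the 25134 genes.

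The other probes of ST3GAL3 gave the same direction and smaller values. They share 51 bases, so they are nearly 1 reading, and they end 676 bases before the first probe begins. Probe 2 gave 54.9, 77.5, 76.4 and 87.0, and probe 3 gave 43.6, 57.5, 62.1 and 62.2. Both were above mock with every hairpin, but with shR-554 by only 0.17 and 0.20. Their means were 0.50 ± 0.29 and 0.43 ± 0.21, and the mean over the 3 probes was 0.54, under 1.5-fold.

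The other ST3GAL genes did not share this difference. ST3GAL6, read from 10 spots, gave 742, 430, 558 and 686 and was the lowest of the family at -0.48 ± 0.31 (SD, n = 3), or -0.66 without shR-749. ST3GAL1 ran from -0.42 to 0.52 between hairpins, ST3GAL4 from -0.69 to 0.063 and ST3GAL5, the GM3 synthase, from -0.87 to 0.11. ST3GAL2 had a mean of 0.010 ± 0.24. The median over the 6 genes was -0.22.

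Of the α2,6-sialyltransferases, ST6GAL1, which caps N-glycans in liver and plasma proteins, gave 23250, 22249, 27582 and 16049. It was at 0.13, -0.065 and -0.55 with the hairpins, and its mean of -0.16 ± 0.35 (SD, n = 3) turned to 0.034 without shR-749. ST6GALNAC3, which acts on O-glycans and gangliosides, was the highest of the family at 0.24 ± 0.17. ST8SIA1, the GD3 synthase, was the only ST8SIA gene measured throughout, with 30.9, 52.9, 45 and 51.1. Its hairpins were all above mock, by 0.97, 0.23 and 0.71, and its mean of 0.64 ± 0.38 was past 1.5-fold. This signal was dim, reaching no more than 1.46 times the detection limit on its dimmest array, the second probe of the gene was not well above background anywhere, and the mean was 0.31 with normexp background correction and 0.47 without shR-467.

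The fucosyltransferases were mostly near the mock array. FUT8, the core fucosyltransferase, gave 1720, 1595, 2409 and 1930 and a mean of 0.14 ± 0.046 (SD, n = 3), with a 95% interval from limma of -0.34 to 0.61. FUT6, which fucosylates plasma proteins made in liver, lay at -0.038 ± 0.014, with an interval of -0.33 to 0.26. FUT10, now POFUT3, was the highest at 0.22 ± 0.27. FUT2, the secretor enzyme that makes the H antigen, gave 75.7, 28.1, 81.9 and 46.2 and was the lowest at -0.72 ± 0.52, with values of -1.23, -0.20 and -0.73. It was close to background, at 1.1 times the limit on its dimmest array, and the mean was -0.32 with normexp background correction and -0.46 without shR-467.

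**Figure D4:**
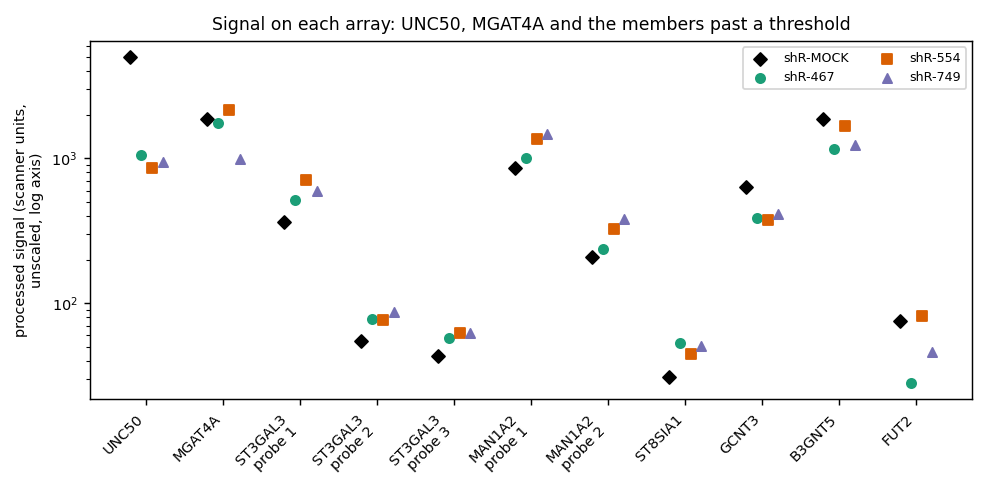
Processed signal on each of the 4 arrays (y axis, scanner units before scaling, log axis) for UNC50, MGAT4A and the members described most fully, with each probe of ST3GAL3 and MAN1A2 drawn apart. UNC50 runs from 5010 in mock to 853 with shR-554, and the 3 ST3GAL3 probes each have the mock array lowest.

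The genes past 1.5-fold differed between hairpins. With shR-467, 4 of 57 genes were past 1.5-fold upward and 3 downward, or 7.02% and 5.26%, against 6.25% and 4.32% of all genes. With shR-554 the counts were 2 upward and 8 downward, or 3.51% and 14%, against 4.49% and 8.33%. With shR-749 they were 3 upward and 8 downward, or 5.26% and 14%, against 5.3% and 6.33%. Of the 20 genes past 1.5-fold with some hairpin, 13 were so with a single one, 6 with a pair and 1, ST3GAL3, with all. Those of shR-554 alone were B3GALT1, B3GNT3, FUT3, GALNTL1 and MGAT4B, and those of shR-749 alone were B3GNT4, B3GNT5, FUT11, MAN1A2, MGAT4A and ST3GAL4. Those of shR-467 alone were B3GNT1 and ST3GAL5. The remaining 37 genes were not past it with any hairpin. Over all genes measured on 4 arrays, 0.568% were past 1.5-fold upward with every hairpin and 0.475% downward. The shares of all genes past it with a single hairpin or with a pair were not counted. The split between hairpins is therefore not shown to be particular to these genes. The median SD between hairpins was 0.26 for the 57 genes, beside 0.22 for all genes measured on 4 arrays.

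Another 6 genes entered the test through the mock array without being well above background on every hairpin array. These were FUT1, GALNTL4, ST6GALNAC2, ST8SIA2, ST8SIA3 and ST8SIA5, and all 6 were missing with shR-554, the array with the lowest share of spots well above background (67.6%, against 69.9% to 73.6% on the others). Among the 3646 genes tested that were not well above background on every array, 75.5% were missing with shR-554. ST8SIA3, which makes sialic acid chains in brain, gave 95.3, 93.4, 28.5 and 52.5. ST6GALNAC2, an O-glycan sialyltransferase, gave 84.0, 59.4, 28.9 and 72.1, and GALNTL4, now GALNT18, gave 31.3, 23.9, 5.90 and 27.3. These 3 genes took the count of members past 1.5-fold on average from 4 of 57 to 7 of 63, or 11.1% beside 9.94% of the genes tested, and since they were kept for their mock signal alone, a lower value under knockdown is built into that choice.

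The 24 genes not well above background on any array were MGAT3, MGAT4C, MGAT5, MGAT5B, GCNT4, GCNT6, GCNT7, ST6GAL2, ST6GALNAC1, ST8SIA4, ST8SIA6, B3GNT6, B3GALT2, B3GALT5, FUT9, GALNT5, GALNT6, GALNT8, GALNT9, GALNT12, GALNT14, GALNTL2, GALNTL5 and GALNTL6. The probe of GCNT6 belongs to what RefSeq now lists as the pseudogene GCNT2P1. The probe used for B3GNT7 is annotated to another chromosome than the gene. Its second probe, on the gene's own chromosome, had a mean of 0.22 ± 0.29 beside 0.13 ± 0.19 (SD, n = 3). With shR-554 the second probe was at -0.10, so by that probe B3GNT7 would not count as above mock with every hairpin.

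The rest of the glycosylation pathway was read from lists of genes that supply, place or remove the same sugars. Of 110 genes listed 109 were on the array, 106 were tested and 105 were measured on all 4 arrays. Of the 106 tested, none was past 1.5-fold upward on average and 1 was downward. In either direction the background is 9.94% of all genes tested and 5.26% of all genes measured on 4 arrays. The latter is the closer match, since 105 of the 106 were measured on all 4 arrays. None was past it with every hairpin, beside 0.568% upward and 0.475% downward of all genes measured on 4 arrays. The median log2 difference was -0.032 for N-glycan assembly in the endoplasmic reticulum, -0.057 for other Golgi glycosyltransferases, 0.036 for sugar donors and their transporters, 0.10 for the retention of glycosyltransferases in the Golgi and 0.11 for glycosidases. None passed limma after adjustment, and 1 did at an unadjusted p under 0.05, beside 0% and 1.52% of all genes tested. These genes, ABO and GOLPH3, were named after their values were seen. ABO, which makes blood group antigens, gave 56.4, 32.5, 39.9 and 39.9, a mean of -0.64 ± 0.15 (SD, n = 3). GOLPH3, which holds several glycosyltransferases in the Golgi, gave 3570 in mock cells and 5150 under shR-467, 6660 under shR-554 and 4490 under shR-749, a mean of 0.54 ± 0.21 with a limma p of 0.043.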

How the data were processed

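Total RNA of 4 Hep3B cultures was measured on single-colour Agilent arrays. The authors deposited the output of Agilent Feature Extraction 10.7.1.1, in which the processed signal is a background-subtracted intensity, and a table of log2 values which, tested here, held quantile-normalized probe means (median difference 0.00113, 5 of 42405 probes off by more than 0.1). All arrays shared 1 slide and 1 scan. Each had 58717 spots other than controls, of which 67.6% to 73.6% were well above background and 0 saturated, and this signal over background, with 4 arrays, limits the precision.

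Spots marked as outliers (254 to 466 per array) were left out and a probe's spots averaged. The log2 processed signal minus the array's 75th percentile was used. A gene was tested if its probe stood well above background in mock cells or under all 3 hairpins, and was fitted with limma 3.58.1 in R 4.3.3 (lmFit, eBayes with trend, Benjamini-Hochberg over 25134 genes) on 2 residual and 4.97 prior degrees of freedom. This takes the spread of the single mock array to be that of the hairpins. Nothing states that the arrays hold separate cultures of each hairpin, so p-values measure the spread between these samples only. Python 3.11.15, numpy 2.4.6 and pandas 2.3.3 were used, and the steps were tested on simulated data.

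The members, the gene lists and the tests were chosen with earlier results of these data known. Named genes are UNC50, MGAT4A, members past 1.5-fold on average or with every hairpin, the highest and lowest member of each family, and genes within 500 kb of UNC50. Members at an unadjusted p under 0.05, and other genes used as examples, were named after their values were seen. Names come from the array, and all 91 members matched RefSeq (GRCh38.p14), 9 under a newer symbol. Chosen probes of 7 members have no position. Protein sequences were not used here. The alternatives tried were other scalings, background correction and filters, the deposited log2 table, marked spots kept, the mean over probes, other tests and thresholds, and each hairpin left out.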

Additional observations from a re-analysis of the deposited data

How the results depend on the processing

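Over 15 alternatives, 484 values were recomputed, of which 462 were classed as unchanged. A gene's difference was so classed if it kept its sign and its side of an adjusted p of 0.05, which none of these genes passed under any alternative. A count was so classed within a ratio of 1.5, and the median over members within the SD between hairpin medians. Alternatives that changed only the filter, the trend or the test left each gene's log2 difference as it was, so its sign could not turn there. Of 30 gene results, 24 kept 1 sign throughout. The count of members past 1.5-fold on average, 7 in the values reported beside 9.94% of all genes, was 2 with normexp background correction (2.14% of all genes), 4 when a probe had to pass the background mark on all 4 arrays (5.26%), 14 with no filter (15.4%), 1 at a threshold of 2-fold (2.71%), and 5 to 12 with 1 hairpin left out (9.53% to 14.8%). The count past it with every hairpin, 1 as reported beside 1.75%, was 0 with normexp correction (0.581%), with the mean over probes (1.66%) and at 2-fold (0.513%), 4 with no filter (2.82%), and 3 to 4 with 1 hairpin left out (3.68% to 6.71%), where fewer hairpins have to pass. Members at an unadjusted limma p under 0.05 numbered 1 without the trend and 1 to 3 with 1 hairpin left out, against 3, while the methods' t-test gave 4, and members passing after adjustment numbered 0 under every alternative that gives a p. The median over members ran from -0.019 to 0.022 with 1 hairpin left out. MGAT4A ran from -0.51 to 0.0062 with 1 hairpin left out, the last without shR-749. Signs turned for VWA3B (0.039 with normexp correction and 0.028 with low signals raised to the limit), C2orf55 (0.50 as the mean over its probes), MAN2A1 (0.013 without shR-554), ST6GAL1 (0.034 without shR-749) and TSGA10 (-0.045 without shR-749), which with 1 hairpin left out ran from -0.18 to 0.013, -0.31 to 0.034 and -0.045 to 0.22. The causes were not tested. A slide or scan block could not be fitted, since all arrays share 1 of each. No paired analysis was possible because the mock group has 1 array and the hairpin numbers were given in accession order. Log2 differences of dim genes such as FUT2 and ST8SIA1 are limited by their signal over background.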

Other observations

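Among the genes that entered no test, 4 were well above background on a single array. Signals are listed from the mock array through shR-467 and shR-554 to shR-749. ST6GALNAC5, a sialyltransferase of gangliosides, gave signals of 11.1, 42.4, 6.29 and 19.2, and FUT5, a fucosyltransferase of Lewis antigens, gave 14.3, 28.1, 16.7 and 25.3, both being well above background with shR-467 only. B4GALT6, a lactosylceramide synthase, gave 11.4, 11.4, 36.4 and 20.1, and GALNT13, an O-glycan starter, gave 16.1, 7.14, 37.3 and 17.8, both with shR-554 only. The lowest signal well above background on these arrays was 21.2, 25.5, 28.3 and 25.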
